A study of Capra hircus with 6 samples.

Results

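The transcripts described here are 10 genes of the NRF2, KEAP1 and thioredoxin antioxidant system, measured by RNA-seq in secondary hair follicle dermal papilla cells (SHF-DPCs) of the cashmere goat with and without all-trans retinoic acid (ATRA). They were chosen by name for their roles, with earlier results of these data already known. They include the transcription factor gene NFE2L2, its repressor KEAP1 and its binding partner MAFG. The others are the enzyme and regulator genes NQO1, SRXN1, TXNRD1, TXN, PRDX1 and OSGIN1, and the cystine carrier gene SLC7A11. All 10 were among the 15944 genes of the count table, and all 10 were among the 12588 genes that passed the filter on low counts.

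Wild-type primary cultures were derived from the skin of Albas cashmere goats aged 3 years, from 3 animals, and were used at passages 4 to 7 in serum-containing medium. The ATRA-treated group (3 libraries) received 100 µM ATRA for 24 h, and the control group (3 libraries) was cultured in the same way without it. The cells grow without the follicle epithelium, and the labels place all 6 libraries in batch 1, so no split by batch could be made. The labels do not say which library came from which animal, so the p-values measure the spread between these libraries.

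NRF2, the protein product of NFE2L2, is a bZIP transcription factor that pairs with small MAF proteins such as MAFG on antioxidant response elements. KEAP1 is the adaptor that brings NRF2 to a CUL3 ubiquitin ligase for degradation, and reactive electrophiles or oxidants that modify KEAP1 cysteines let NRF2 accumulate. In skin and in other tissues this system is known for protection against oxidants and reactive chemicals. Much of its control lies in protein stability, which RNA-seq does not measure. Thioredoxin (TXN) reduces protein disulfides, thioredoxin reductase (TXNRD1) recharges it with NADPH, peroxiredoxin 1 (PRDX1) uses it to remove peroxides, and sulfiredoxin (SRXN1) restores peroxiredoxins that have been over-oxidized.

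The libraries held 35532339 to 38012771 counts. Genes with at least 1 count numbered 13990 to 14041 per control library and 14577 to 14647 per ATRA-treated library, and mean TMM scaling factors were 0.847 for controls against 1.18 after ATRA. Within the ATRA-treated group, replicate 2 stood apart: the chi-square of the counts per degree of freedom was 18.4 against replicate 1 and 17.3 against replicate 3, while replicates 1 and 3 gave 5.01 and the control pairs gave 6.13 to 8.94. The labelled cell type was checked with 15 dermal papilla genes, of which 14 were listed and 9 tested. With TMM scaling 8 fell and 0 rose. The summed level of the listed genes was 27800 to 30400 CPM (counts scaled to a common library total) in controls against 1860 to 1910 CPM after ATRA. The sum was led by ACTA2 and VIM, which are broad mesenchymal genes. VCAN, PDGFRA, BMP4 and RSPO3 stood at 1641, 865, 406 and 275 CPM in controls, and FGF7 and LEF1 at 25.7 and 16.1 CPM. FGF7 and LEF1 fell least (log₂FC -0.23 and -0.54), and their calls with scaling by library size alone are not given here. In contrast, ALPL, CORIN and PROM1 had at most 1 count in any library, so these defining markers were near 0 in both groups. SOX2, SOX18 and NOG had at most 23 counts. The study identified the cells by staining for alpha-smooth muscle actin and CD133, the protein products of ACTA2 and PROM1. Of these 2 genes, PROM1 had at most 1 count in any library, as given above. ACTA2 stood at a mean of 6582 CPM in controls against 8.37 CPM after ATRA (log₂FC -9.62). In bulk libraries, fewer cells of a type and less RNA per cell cannot be told apart.

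Markers of other cell types were low. Of 8 keratinocyte markers 7 were listed and 1 (KRT10) was tested and rose, with summed levels of 3.11 to 4.98 CPM in controls against 5.37 to 5.97 CPM after ATRA, and CDH1 and TP63 had at most 2 counts in any library. KRT14 had 20, 14 and 10 counts in controls against 3, 0 and 0 after ATRA, and KRT5 had 2, 7 and 3 against 0 in each. Of 6 endothelial markers 5 were listed and 3 tested, of which 2 rose and 0 fell, and the sums were 0.903 to 1.24 CPM and 6.19 to 9.16 CPM. CDH5 had at most 1 count, whereas PECAM1 counts were 0 in every control and 242, 340 and 206 after ATRA. Of 6 leukocyte markers 4 were listed and 1 (CD68) was tested and rose (sums of 2.69 to 5.86 CPM and 10.8 to 12.1 CPM), and of 7 melanocyte markers 3 were listed and 2 tested, of which MITF rose and PMEL fell (sums of 16.1 to 17.6 CPM and 32.2 to 39.0 CPM), with TYRP1 at no more than 1 count. These sums moved with the treatment, as the members below did, and their part in the results was not tested.

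All 10 members rose in the ATRA-treated group at an adjusted p under 0.05 by edgeR's quasi-likelihood test, and 0 fell. Over all tested genes, 40.9% rose and 38.7% fell at that threshold, so a rise was common in these libraries. The same shares are the background for the other lists counted below. Because the members were chosen with earlier results of these data known, their counts describe them and are no test against this background. With the thresholds of the study's methods (a log₂FC above 1 and an unadjusted p under 0.05), 9 of the 10 members passed, NFE2L2 being the exception, against a background of 13.7% of tested genes upward and 17.3% downward (a log₂FC below -1). Every ATRA-treated library lay above every control library for 10 of 10 members and for 41.2% of all tested genes. The median log₂FC was 1.42 over the members and 0.04 over all genes tested. Together the 10 genes took 0.252% to 0.267% of all counts in the control libraries and 0.923% to 0.983% in the ATRA-treated libraries.

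**Figure D1:**
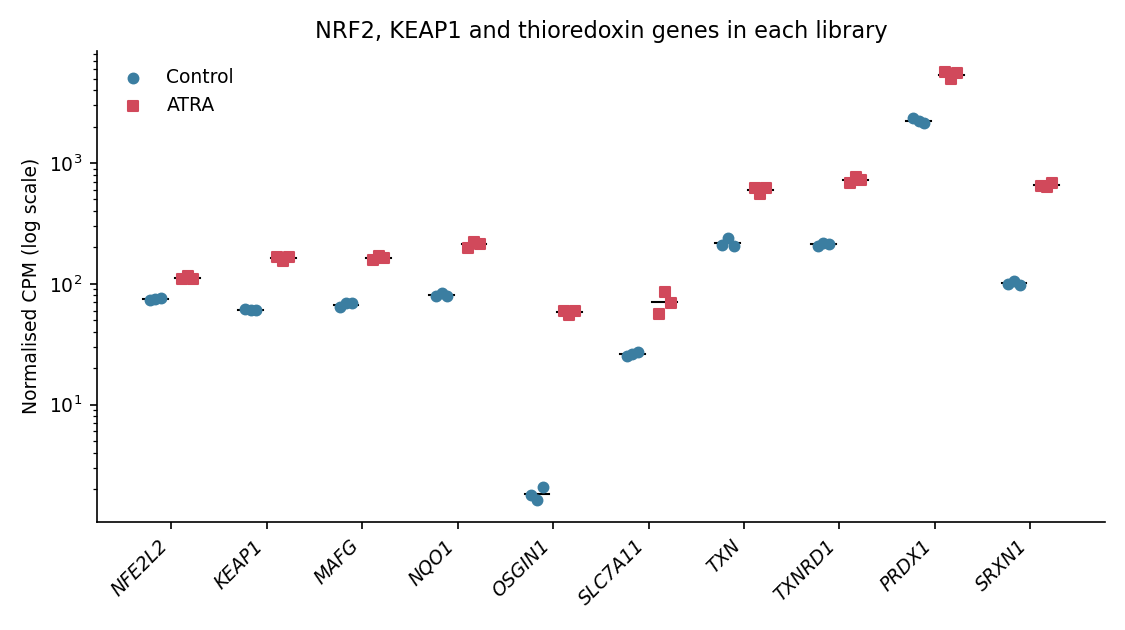
Normalized CPM (log axis) of each of the 10 members in the 3 control and the 3 ATRA-treated libraries. Each dot is a library and each black line a group mean; the groups do not overlap for any member, and SLC7A11 has the widest spread among the ATRA-treated libraries.

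Among the sensor and transcription factor genes, NFE2L2 rose least and KEAP1 and MAFG rose more. All levels below are normalized CPM, scaled to each library's TMM-adjusted total, and all folds are log₂FC of ATRA-treated over control with the standard error (SE). NFE2L2 stood at 73.0, 75.1 and 76.5 CPM in the control libraries and at 109.7, 115 and 109 CPM in the ATRA-treated libraries. The groups were well apart, but the step was the smallest of the members: the log₂FC was 0.57 (SE 0.0577, adjusted p = 4.55e-08), and 75.0% of tested genes had a lower log₂FC. KEAP1, whose product holds NRF2 in check, stood at 61.7, 60.6 and 60.8 CPM in the control libraries and at 165, 155 and 166 CPM in the ATRA-treated libraries. Its control values were nearly level, at 61.0 ± 0.612 CPM (SD, n = 3), and its log₂FC was 1.41 (SE 0.0572, adjusted p = 6.01e-14). MAFG, which encodes a small MAF partner of NRF2, stood at 63.8, 68.7 and 69.4 CPM in the control libraries and at 156, 170.2 and 165 CPM in the ATRA-treated libraries. The lowest ATRA-treated library was well above the highest control library, with a log₂FC of 1.28 (SE 0.0601, adjusted p = 5.33e-13).

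Because the repressor rose by more than the factor, the ratio of their counts differed between the groups. This ratio is taken inside each library, so it does not depend on scaling between libraries. The number of NFE2L2 counts per KEAP1 count was 1.18, 1.24 and 1.26 in the control libraries and 0.664, 0.740 and 0.656 in the ATRA-treated libraries. The groups did not overlap, and the difference of the log2 ratio (ATRA-treated minus control) was -0.839. The exact permutation test (two-sided) gave p = 0.1, the smallest that 3 against 3 libraries allow. The ratio concerns transcripts and carries no measure of the NRF2 or KEAP1 proteins.

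The other genes that act with NRF2 did not move as a block. Of 14 partners and regulators 13 were tested, and 9 rose, 2 fell and 2 did not pass the test, with a median log₂FC of 0.40. SQSTM1, which encodes the autophagy receptor p62 that binds KEAP1, rose from 487 ± 7.34 CPM to 5695 ± 271 CPM (SD, n = 3), a log₂FC of 3.55 (SE 0.0648). CUL3, the scaffold of the KEAP1 ligase, rose by a log₂FC of 0.34 (SE 0.0614), and SYVN1, which encodes an endoplasmic reticulum ubiquitin ligase, by 1.13 (SE 0.0788). The small MAF genes MAFF and MAFK rose by 1.96 (SE 0.0685) and 0.93 (SE 0.0718), so all 3 small MAF genes measured were higher in the ATRA-treated group. DPP3, whose product binds KEAP1, fell (log₂FC -1.23, SE 0.0688), as did GSK3B, a kinase that marks NRF2 for degradation (-0.40). With scaling by library size alone GSK3B stood at 0.07 and did not pass the test. BACH1, a repressor that competes with NRF2 for small MAF partners, was at 57.8 ± 4.84 CPM in controls and 58.4 ± 6.89 CPM after ATRA (SD, n = 3), with a log₂FC of 0.01 (SE 0.0828, adjusted p = 0.874). That estimate did not pass the test, and it was below 0 under some alternatives. The related BACH2 was at 0 counts in every control, against 13, 15 and 10 counts after ATRA. As a pair picked after its values were seen, MAFG per BACH1 count went from 1.17 ± 0.0552 to 2.82 ± 0.257 (SD, n = 3).

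**Figure D2:**
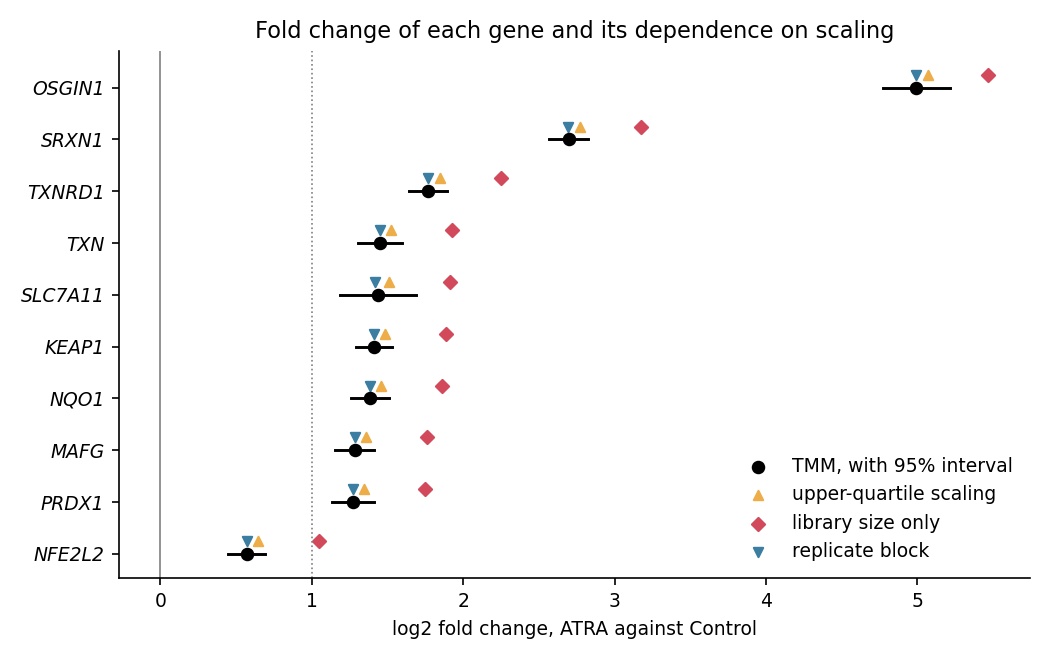
The log₂FC (ATRA-treated over control) of each member, with its 95% interval from the TMM-scaled edgeR fit and points for 3 alternatives (upper-quartile scaling, library size only, replicate block). The dotted line marks a log₂FC of 1; NFE2L2 lies below it at 0.57 with TMM scaling and above it at 1.05 with library size only.

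OSGIN1 had the largest log₂FC of the members and the fewest control counts, which are not scaled by gene length. It encodes an oxidative stress-induced growth inhibitor and is a known NRF2-responsive gene. Its counts were 55, 52 and 67 in the control libraries and 2582, 2432 and 2456 in the ATRA-treated libraries. In CPM the control libraries stood at 1.77, 1.61 and 2.09 and the ATRA-treated libraries at 59.7, 55.1 and 59.3, so no library came near the other group. The log₂FC was 4.99 (SE 0.105, adjusted p = 3.51e-18), a fold of 31.8, and 99.1% of tested genes had a lower log₂FC. On the log2(CPM + 1) scale the difference was smaller, at 4.39, since a pseudocount of 1 is large beside the control level. NQO1, the quinone reductase that is a classical NRF2 target, rose less. It stood at 79.9, 84.5 and 79.2 CPM in the control libraries and at 198, 222 and 215 CPM in the ATRA-treated libraries. The log₂FC was 1.38 (SE 0.0602, adjusted p = 1.76e-13), near that of KEAP1.

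SLC7A11 was the most variable member. It encodes the cystine-importing light chain of the cystine/glutamate exchanger, which feeds glutathione synthesis. Control libraries stood at 25.2, 26.0 and 27.0 CPM, and ATRA-treated libraries at 55.8, 86.1 and 69.7 CPM. The control values were close together, whereas the highest ATRA-treated library, replicate 2, was 1.54 times the lowest, a coefficient of variation of 21.5%; for the other members the highest ATRA-treated library was at most 1.14 times the lowest. The log₂FC was 1.44 (SE 0.118, adjusted p = 1.40e-08), and 1.26 without ATRA replicate 2, the library that also stood apart over all genes.

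The heavy chain partner of SLC7A11, SLC3A2, rose from 307 ± 11.9 CPM to 613 ± 32.6 CPM (SD, n = 3), with a log₂FC of 1.00 (SE 0.0599). The SLC7A11 count per SLC3A2 count, a pair picked after its values were seen, was 0.0787, 0.0854 and 0.0908 in the control libraries and 0.0884, 0.150 and 0.110 in the ATRA-treated libraries. These groups overlapped, since ATRA replicate 1 lay below control replicate 3. The 2 chains of glutamate-cysteine ligase, the enzyme that begins glutathione synthesis, differed: GCLC, its catalytic chain, rose from 14.2 ± 1.07 CPM to 136 ± 6.49 CPM (SD, n = 3; log₂FC 3.26, SE 0.0743), whereas GCLM, its modifier chain, was at 58.9 ± 5.55 CPM and 63.2 ± 7.42 CPM (SD, n = 3; log₂FC 0.10, SE 0.0848, adjusted p = 0.283). The difference between the chains was not itself tested. Of 15 glutathione and cystine genes 14 were tested, and 9 rose, 3 fell and 2 did not pass, with a median log₂FC of 0.90. The untested gene was GSTA4, matched to LOC102174708, which had at most 1 count in any library. Another gene described as glutathione S-transferase A4, LOC102175171, is counted with the further transferase genes below. It fell with TMM (log₂FC -0.49) and stood at -0.01 with library size alone, where it did not pass the test.

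The other large risers of that list were GSTM3, a glutathione transferase gene (log₂FC 5.13, SE 0.0793), ABCC4, which encodes an efflux pump (3.48, SE 0.0782), and GGT1, which encodes an enzyme that splits extracellular glutathione (2.62, SE 0.292). GGT1 was low, with 8 to 11 counts in the control libraries and 75 to 81 counts in the ATRA-treated libraries. The genes that fell were GPX4, a peroxidase gene for lipid peroxides (-1.29, SE 0.0736), and GPX1 and GSTP1 (-0.36 and -0.35). With scaling by library size alone GPX1 and GSTP1 stood at 0.12 and 0.13 and did not pass the test. The transferase genes belong to families with near-identical copies, and how reads shared between copies were assigned is not given in the sources used here.

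The reductase gene of the thioredoxin pair rose more than thioredoxin itself. TXN stood at 211, 240.4 and 204 CPM in the control libraries and at 616, 551 and 623 CPM in the ATRA-treated libraries. Its highest control library was replicate 2, its lowest ATRA-treated library was also replicate 2, and the groups were still far apart. The log₂FC was 1.45 (SE 0.0701, adjusted p = 8.50e-13). TXNRD1 stood at 207, 216 and 215 CPM in the control libraries and at 684, 766 and 722 CPM in the ATRA-treated libraries. With a log₂FC of 1.77 (SE 0.0604, adjusted p = 4.24e-15), it had the third largest log₂FC among the members, after OSGIN1 and SRXN1. In the reference annotation TXNRD1 overlaps a tRNA gene and LOC102189375, whose counts were not analysed here, and EID3, which had 110 to 178 counts in the control libraries and 84 to 87 in the ATRA-treated libraries, far fewer than the 6426 to 33802 counts of TXNRD1.

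TXNIP, whose product binds and inhibits thioredoxin, went the other way. It fell from 118 ± 4.45 CPM to 69.3 ± 2.39 CPM (SD, n = 3), with a log₂FC of -0.77 (SE 0.0592, adjusted p = 9.78e-10). Per TXN count there were 0.533, 0.501 and 0.591 TXNIP counts in the control libraries and 0.117, 0.124 and 0.108 in the ATRA-treated libraries. The groups did not overlap and the log2 ratio differed by -2.22 (ATRA-treated minus control), with p = 0.1 by the two-sided exact permutation test, again the smallest that this design allows. The TXNRD1 count per TXN count, picked after its values were seen, was 0.980, 0.898 and 1.05 in the control libraries and 1.11, 1.39 and 1.16 in the ATRA-treated libraries, a log2 difference of 0.316.

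Sulfiredoxin had the second largest log₂FC of the members, and its substrate gene PRDX1 had the most counts of them. SRXN1 stood at 100.3, 106 and 97.3 CPM in the control libraries and at 641, 635 and 689 CPM in the ATRA-treated libraries. The rise was 6.48-fold, a log₂FC of 2.70 (SE 0.0620, adjusted p = 1.15e-17), and 96.7% of tested genes had a lower log₂FC. PRDX1 stood at 2345, 2219 and 2132 CPM in the control libraries and at 5649, 4955 and 5548 CPM in the ATRA-treated libraries. Its share of all counts was 0.181% to 0.197% in controls and 0.593% to 0.666% after ATRA, and its log₂FC was 1.27 (SE 0.0658, adjusted p = 2.49e-12). The SRXN1 count per PRDX1 count, again picked after its values were seen, went from 0.0453 ± 0.00241 to 0.122 ± 0.00760 (SD, n = 3), a log2 difference of 1.43. TXN and PRDX1 may also share reads with near-identical copies, and their values carry that uncertainty.

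**Figure D3:**
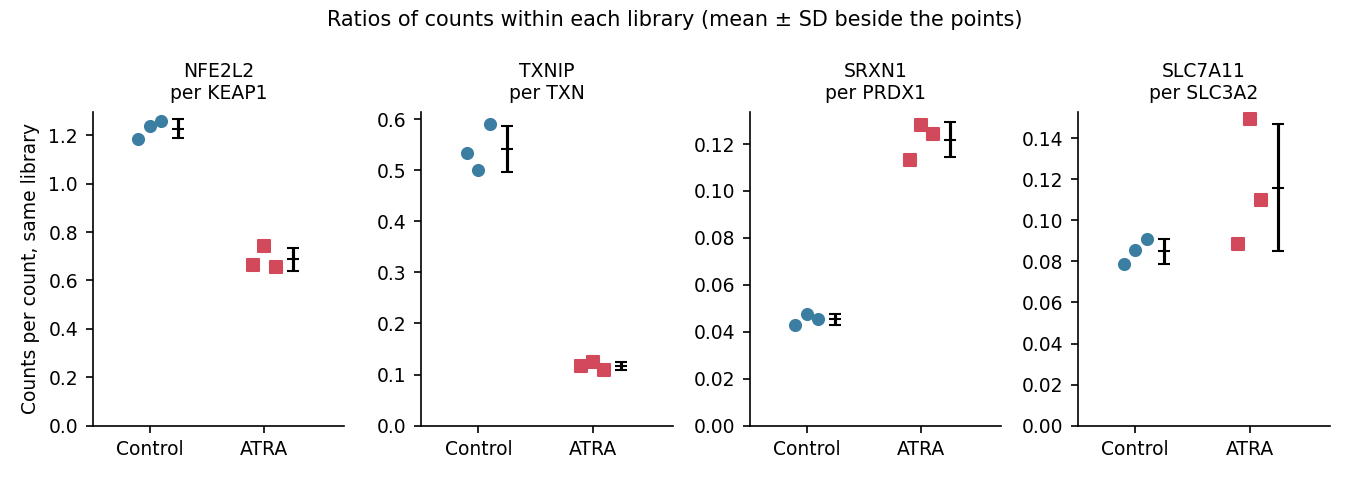
Counts of one gene per count of another in the same library, for NFE2L2 per KEAP1, TXNIP per TXN, SRXN1 per PRDX1 and SLC7A11 per SLC3A2, in 3 control and 3 ATRA-treated libraries, with mean ± SD. NFE2L2 per KEAP1 falls from 1.23 to 0.687 and TXNIP per TXN from 0.542 to 0.116, SRXN1 per PRDX1 rises, and the SLC7A11 per SLC3A2 groups overlap.

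Of 17 other thioredoxin and peroxiredoxin genes 6 rose, 8 fell and 3 did not pass, with a median log₂FC of 0.02. With scaling by library size alone 10 rose and 6 fell. The difference between these genes and the members was not tested. The sestrin genes SESN3 and SESN1 rose by 1.08 (SE 0.111) and 1.00 (SE 0.146), the peroxiredoxin gene PRDX5 by 1.04 (SE 0.0756) and the reductase gene TXNRD3 by 0.72 (SE 0.0823). The largest falls were in the redox protein gene NXN (log₂FC -2.10, SE 0.0609), MSRB1, a methionine sulfoxide reductase gene (-1.09, SE 0.0747), the glutaredoxin gene GLRX (-1.02, SE 0.110) and PRDX4, which encodes the peroxiredoxin of the endoplasmic reticulum (-0.94, SE 0.0629). The table's own annotation gives "cell redox homeostasis" to 4 members (NFE2L2, PRDX1, TXN and TXNRD1). Of the 45 other tested genes with that term 14 rose (31.1%) and 27 fell (60.0%), with a median log₂FC of -0.19, whereas with library size alone 28 rose and 12 fell. Over all tested genes 5151 rose and 4877 fell with TMM, against 7921 and 2861 with library size alone.

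In order of log₂FC the members ran OSGIN1, SRXN1, TXNRD1, TXN, SLC7A11, KEAP1, NQO1, MAFG, PRDX1 and NFE2L2. The 95% intervals of OSGIN1 (4.77 to 5.21), SRXN1 (2.57 to 2.83) and NFE2L2 (0.45 to 0.69) overlapped that of no other member. That of TXNRD1 (1.64 to 1.90) overlapped the interval of SLC7A11 (1.18 to 1.69) alone. From TXN to PRDX1 each gene's interval overlapped its neighbour's, so their order was not resolved. Among all tested genes OSGIN1 ranked 116 and SRXN1 418, whereas NFE2L2 ranked 3146.

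**Figure D4:**
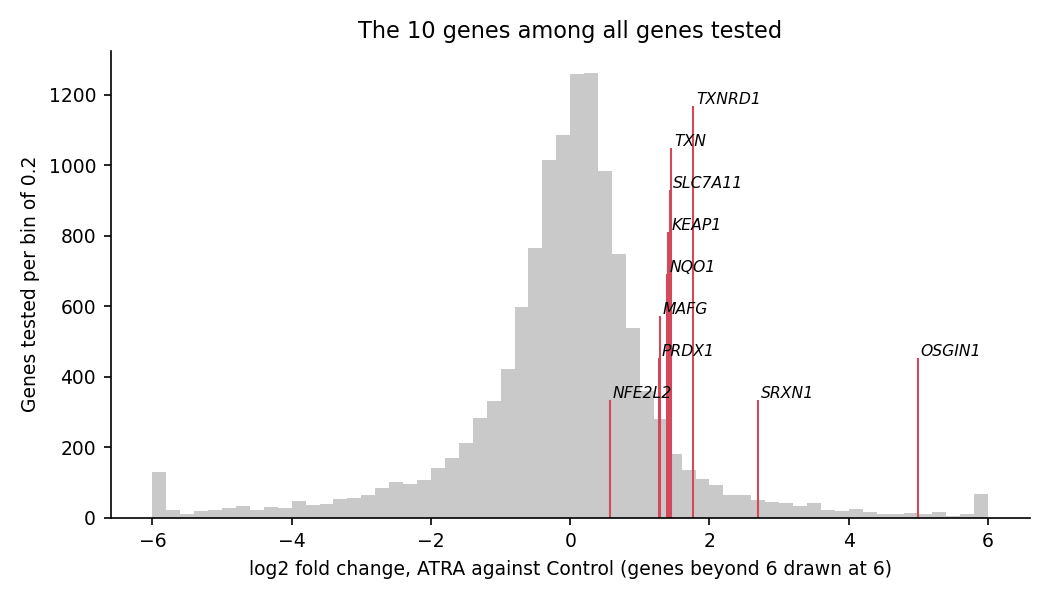
Histogram of log₂FC (ATRA-treated over control) over the 12588 genes tested, with a vertical line for each member; values beyond 6 in either direction are drawn at 6. All 10 lines lie to the right of the median of all genes (0.04), from NFE2L2 at 0.57 to OSGIN1 at 4.99.

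The scale of these folds depended on how the libraries were made comparable, since the median log₂FC of all genes was 0.04 with TMM and 0.52 with library size alone. A change of scaling shifts every gene by nearly the same amount. Relative to that median, the members' values were therefore bound to be the same under TMM and library size alone. They were 0.53 for NFE2L2, 1.23 for PRDX1, 2.66 for SRXN1 and 4.95 for OSGIN1. With library size alone NFE2L2 reached 1.05, and all 10 members then passed the study's thresholds. Over all tested genes 7921 then rose and 2861 fell at an adjusted p under 0.05. The counts of the other lists given here are with TMM; with library size alone 11 of the NRF2 partners rose and 1 fell, 11 glutathione and cystine genes rose and 1 fell, 5 NADPH-producing enzymes rose and 1 fell, 4 heme and iron genes rose and 1 fell, 6 detoxification genes rose and 2 fell, 1 superoxide or peroxide enzyme rose and 2 fell, and 5 AP-1 and ATF4-related genes rose and 2 fell.

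Other gene groups linked to NRF2 in the literature moved in both directions, as did tested genes as a whole (40.9% rose and 38.7% fell). Of 6 heme and iron genes 4 rose and 2 fell (median log₂FC 1.67). HMOX1, the heme oxygenase gene, rose from 40.9 ± 1.78 CPM to 473 ± 9.12 CPM (SD, n = 3; log₂FC 3.53, SE 0.0612). The ferritin chain genes FTH1 and FTL rose by 2.84 (SE 0.0697) and 2.20 (SE 0.0667), and the biliverdin reductase gene BLVRB by 1.13 (SE 0.0745), while BLVRA fell (-1.10, SE 0.0793). FECH, which encodes the last enzyme of heme synthesis, fell with TMM (-0.48) and stood at 0.000759 with library size alone. FTH1 and FTL have many near-identical copies, so their values are uncertain.

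Of 6 NADPH-producing enzymes 4 rose and 2 fell (median 0.45). TKT and TALDO1, of the non-oxidative pentose phosphate pathway, rose by 1.58 (SE 0.0605) and 1.33 (SE 0.0560), and ME1 by 0.60 (SE 0.0557). IDH1 fell (-1.50, SE 0.0610), as did PGD (-0.14, adjusted p = 0.0481), which lost its call with upper-quartile scaling (-0.06), with a filter of at least 1 CPM in 3 libraries (-0.12), in R's t.test function and when any control library or ATRA replicate 2 was left out, and turned upward with library size alone. The enzymes that supply NADPH, which TXNRD1 and NQO1 use, did not all move the same way.

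Of 11 detoxification and carbonyl reduction genes 9 were tested, and 4 rose, 4 fell and 1 did not pass (median -0.18). EPHX1, an epoxide hydrolase gene, rose by 1.56 (SE 0.103), PIR by 1.19 (SE 0.106), NQO2 by 0.80 (SE 0.0655) and AKR1B1, an aldose reductase gene, by 0.65 (SE 0.0645). PTGR1, a prostaglandin and enal reductase gene, fell (-2.54, SE 0.0950), as did UGDH (-2.27, SE 0.0665), PTGR2 (-0.35) and AKR1A1 (-0.27) with TMM. With library size alone AKR1A1 rose (0.20), and PTGR2 stood at 0.13 and did not pass the test. Of the 4 superoxide and peroxide enzymes 0 rose, 3 fell and 1 did not pass (median -0.93). CAT, the catalase gene, fell (-1.37, SE 0.0897), as did SOD2 (-0.49, SE 0.0652; -0.02 and not passed with library size alone), and SOD3 had 27, 21 and 25 counts in the control libraries and 1, 2 and 0 in the ATRA-treated libraries. SOD1 had a log₂FC of 0.12 with adjusted p = 0.139.

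Of 8 AP-1 and ATF4-related factor genes, whose products bind elements near those of NRF2 or regulate SLC7A11, 5 rose and 3 fell (median 0.81). ATF3 rose by 2.37 (SE 0.0769), DDIT3 by 1.69 (SE 0.0709), JUND by 1.05 (SE 0.0560) and CEBPB by 0.92 (SE 0.0546). FOSL2 (-2.32, SE 0.0601) and JUN (-1.60, SE 0.0582) fell. FOSL1 fell with TMM (-0.44) but stood at 0.04 and did not pass the test with library size alone.

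**Figure D5:**
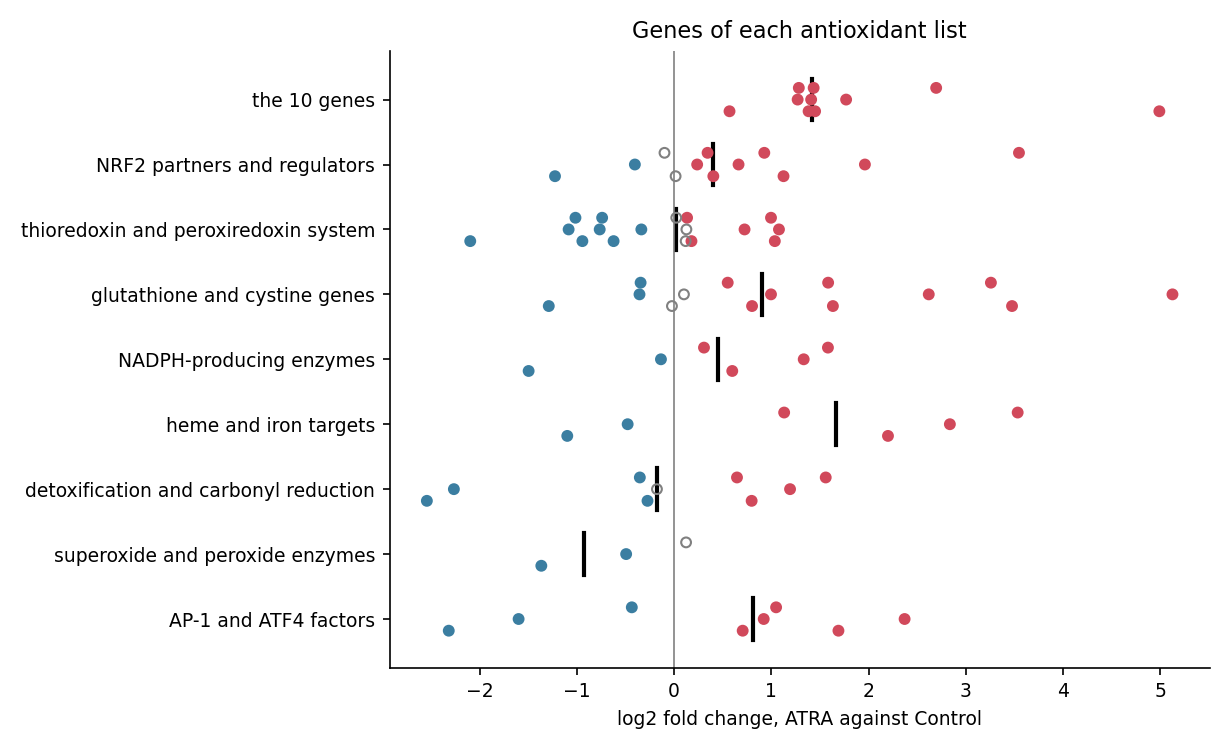
The log₂FC (ATRA-treated over control) of genes in the members and 8 other lists with a mean of at least 1 CPM. Red points rose and blue points fell at an adjusted p under 0.05, open grey points did not pass, and black bars are the median of each list's tested genes, from -0.93 for superoxide and peroxide enzymes to 1.67 for heme and iron genes among the 8 lists.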

How the data were processed

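The authors extracted total RNA, prepared poly(A)-selected libraries, trimmed reads with TrimGalore 0.6.6 and fastp, and deposited a table of whole-number read counts per gene, not normalized, with annotation columns. HISAT2, featureCounts and DESeq2 are named in the submitters' processing notes; their versions, the genome build, annotation and strand setting are not given in the sources used here. All 15944 gene names matched the symbols of the RefSeq table (assembly ARS1.2), which also gave gene overlaps. No sequence was analysed here.

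Genes were kept by edgeR's filterByExpr (12588), TMM-scaled and tested with edgeR 4.0.16 (R 4.3.3) by the robust, two-sided quasi-likelihood test on the 6 libraries, with Benjamini-Hochberg adjustment over all genes and a prior count of 0.125. This replaced the t.test function of the study's methods because the values are counts; that function was run on log2(CPM + 1). Intervals are 95% and, like the SE, derive from this fit. Chi-square compared counts between libraries. Scripts were tested on simulated data. With over 35532339 counts per library, counting error is small except in genes with few counts, and 3 libraries per group limit the precision.

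The members and lists were chosen with earlier results of these data known. Named genes are all 10 members, up to 4 genes per list and direction with the largest |log₂FC| at adjusted p under 0.05 and mean CPM of at least 1, and the partners TXNIP, SLC3A2, CUL3, SQSTM1, BACH1, HMOX1, GCLC and GCLM. BACH2, SOD3, SOD1, LOC102175171, marker genes and EID3 were added after their values were seen. The values of 1 gene that the rule names are not reported here. Alternatives were 4 scalings, 2 filters, DESeq2 1.42.0, t.test, a replicate block and leaving out each library.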

Additional observations from a re-analysis of the deposited data

How the results depend on the processing

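All 10 members rose at an adjusted p under 0.05 under every alternative run; the largest adjusted p was 0.0254, for SLC7A11 with R's t.test function. The members' median log₂FC, 1.42 with TMM, was 1.50 with upper-quartile scaling and 1.90 with library size only, and 1.39 to 1.42 when each library was left out in turn. Library size only also gave 7921 genes higher and 2861 lower in place of 5151 and 4877, and turned GSK3B (0.0749), GPX1 (0.122), GSTP1 (0.133), PGD (0.342), FECH (0.000759), PTGR2 (0.126), AKR1A1 (0.204) and FOSL1 (0.0425) upward in log₂FC. Of these genes PGD and AKR1A1 passed the test upward, and the others did not pass. BACH1 turned to -0.00543 with RLE size factors and -0.00548 with DESeq2. With each library left out, BACH1 ranged from -0.0945 (without ATRA replicate 2; -0.0475 without control replicate 1) to 0.0725 and GCLM from -0.00743 (without ATRA replicate 2) to 0.156. The cause was not tested. BACH1 and GCLM passed the test with library size only (log₂FC 0.49 and 0.58). GSTP1 and PGD no longer passed in the t.test function, and PGD, from -0.182 to -0.0851 with each library left out, did not pass in the fits without a control library or without ATRA replicate 2. Same-numbered libraries showed little shared deviation (r of 0.0892, 0.0299 and -0.0764, against -0.135 to 0.1 for differently numbered libraries). With 3 libraries per group these values cannot decide whether the numbers pair the samples by animal. With a replicate block all 10 members still rose, with a median of 1.41, and 5123 genes were higher and 4869 lower. Low counts limit BACH2, SOD3, GGT1 and the control level of OSGIN1.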

Other observations

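Genes that the table itself describes as belonging to 5 related families were chosen after their values were seen, and 3 of these families held genes that rose and genes that fell. Over all tested genes 40.9% rose and 38.7% fell. Of 15 further genes described as thioredoxin genes 12 were tested, and 3 rose (TMX2 by a log₂FC of 0.59, TXNL4B by 0.54 and TXNDC12 by 0.33), 7 fell (among them TXNDC17 at -1.02 and TXNDC9 at -0.72) and 2 did not pass, with a median of -0.17. With scaling by library size alone, added after seeing the data, 9 of the 12 rose and 2 fell, with a median of 0.30. Of 21 further glutathione S-transferase genes 14 were tested, and 6 rose and 5 fell, with a median of 0.14, against 8 and 1 with library size alone. Among them LOC102173702, described as an alpha-class transferase, rose by 4.18, LOC102190481, a mu-class transferase, by 3.00 and GSTZ1 by 0.85, while LOC102190016, an omega-class transferase, fell (-0.84), as did GSTK1 (-0.66). Reads shared among these transferase copies make their values uncertain.

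Selenoproteins, the class to which TXNRD1 belongs, moved in both directions, as did tested genes as a whole. Of 10 genes so described 9 were tested, and 4 rose and 4 fell, with a median log₂FC of -0.01, against 6 and 3 with library size alone. SEPP1, which encodes the secreted selenium carrier, fell (-3.38), as did SEPW1 (-2.16) and SEPN1 (-0.71), while LOC102173135 (selenoprotein K) rose by 1.22, LOC102183674 (selenoprotein O) by 1.07 and VIMP by 0.80. In the other families every tested gene rose. The 2 further aldo-keto reductase genes were AKR1E2, which rose by 1.10, and AKR1D1, which had 0, 0 and 1 counts in controls against 21, 18 and 13 after ATRA. The 1 further ferritin gene, LOC102172435 (ferritin light chain), had 2, 4 and 1 counts against 29, 19 and 13.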
